A study of Mus musculus with 8 samples.

Results

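Keratins are the intermediate filament proteins of epithelial cells, and this account covers their genes in 8 mouse neuroblastoma-type tumours together with a set of epidermal genes. The genes were chosen by name: every gene whose symbol is Krt followed by digits and at most 1 letter, plus Krtdap, Dsp, Dsg1a, Lor, Ivl, Trp63, Flg and Sbsn, with Perp left out. The array gave a value for 61 such genes, 53 keratins and 8 other epidermal genes, of 22180 genes in all. The tumours were primary subcutaneous growths of mouse neural crest cells, the embryonic cells that give rise to sympathetic neurons, glia and pigment cells. The cells had been transduced with N-Myc and were a mixture of p53+/- and p53-/- cells, and about 10000 of them were injected 48 hours after infection into nude or C57Bl/6 mice, with the tumours taken after about 50 days. All 8 tumours carry the same label and form 1 group, and no normal skin, untransduced cells or other tumour type were analysed here. Host and p53 genotype are not given per tumour in the labels, nor is it said whether 2 tumours shared an animal or whether skin was taken along.

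Keratins form filaments only as pairs of 1 type I and 1 type II protein, and the pairs change with the kind of epithelium. In the epidermis, the proliferating basal layer makes Krt5 and Krt14, cells that leave it switch to Krt1 and Krt10, and keratinocytes of wounds, of hyperproliferative epidermis and of parts of the hair follicle make Krt6a, Krt6b, Krt16 and Krt17. Single-layered epithelia make Krt8 and Krt18, often with Krt7, Krt19 or Krt20, while the hair shaft and its inner root sheath have keratins of their own. Neurons and crest-derived tumours are known instead for vimentin and for neurofilament-type proteins.

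Each value is a log2 level, 1 array per tumour, and a gene was called above background if its mean over the 8 tumours exceeded the array background with a Benjamini-Hochberg adjusted p under 0.05 over all genes (limma). As background served the level under which 95% of 1435 chemosensory receptor probe sets of an array lay (olfactory, vomeronasal and bitter taste receptors), 5.45 to 5.66 over the 8 arrays. The medians of the arrays lay between 5.63 and 5.75. As to the tumour label, 6 of 6 measured neuroblastoma markers were called, where 57.3% of all genes were, with Hand2 at 10.57 ± 0.35 and Th at 10.05 ± 0.91 (SD, n = 8). Dbh, of noradrenaline synthesis, was at 5.72 in tumour 6, only 0.19 above background, and at 9.87 to 11.43 in the other tumours. Separate animals are not stated, so the p-values cover only these samples, and their number limits the precision.

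Tumour 5 stood apart from the others in several keratins of the epidermis. No keratin of simple epithelia, the hair shaft or the inner root sheath lay 1 log2 unit above its median there. Krt6a, Krt6b, Krt14, Krt16, Krt17, Krt1 and Krt10, together with Krtdap and Dsp, lay at least 1 log2 unit above their own median over the 8 tumours in tumour 5, which is a doubling or more on the linear scale. No other tumour had any of the 61 genes that far above its median. Of all 22180 genes, 0.573% passed that step in tumour 5, and 0.284%, 0.397%, 0.897%, 1.77%, 1.79%, 0.46% and 0.956% passed it in tumours 1, 2, 3, 4, 6, 7 and 8. Of the 61 genes, 36 had their highest level in tumour 5, against 17.7% of all genes. Among them were 19 of the 41 measured keratins outside the basal, epidermal suprabasal and stress classes. Those 41 deviated from their medians by -0.28 to 0.51 in tumour 5. With 1 array per tumour, no difference between tumours could be set against replicates, so these are values of single arrays. In a whole-tumour sample, more cells of a type and more RNA per cell cannot be told apart, and which cells made this RNA was not tested.

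Of the 5 stress and companion layer keratins, 4 passed the step in tumour 5. Their medians, apart from that of Krt17, lay below background, so the height over background in tumour 5 is given beside the levels, and the size of a deviation sets no order between genes. Where the other tumours are given one by one, they stand in the order 1, 2, 3, 4, 6, 7 and 8. Krt6a, a type II keratin of the hair follicle companion layer and of wounded epidermis, was at 9.05 in tumour 5, against 4.19, 4.18, 4.29, 4.33, 4.24, 4.22 and 4.30 in the other tumours. Its close copy Krt6b was at 9.15 in tumour 5, against 4.88, 4.87, 4.5, 4.71, 4.65, 4.48 and 4.89 in the other tumours. Both were above background in tumour 5 alone, by 3.42 and 3.52. How far the probe sets of such near-identical genes read each other is not known here, so it is uncertain which of them gave the signal. Krt16, a type I partner of the Krt6 proteins, was at 8.30 in tumour 5, 2.67 above background, against 4.46, 4.34, 4.58, 4.57, 4.58, 4.32 and 4.30 in the other tumours. Krt75, the remaining keratin of this class, was below background in all 8 tumours, with its highest level, 5.07, also in tumour 5.

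Krt17, a type I keratin of hair follicles and of injured epidermis, had a second feature, since it also varied among the other tumours. It was at 9.42 in tumour 5, against 5.03, 6.69, 5.86, 6.24, 5.16, 5.49 and 5.82 in the other tumours. The values of tumours 2, 3, 4 and 8 lay above the background of their arrays. The SD of Krt17 was 1.41 over the 8 tumours and 0.59 without tumour 5, and the next largest SD without that tumour was 0.37, of Krt71. For Krt6a, Krt6b and Krt16 the SD was 1.70, 1.58 and 1.37 over the 8 tumours and 0.06, 0.18 and 0.13 without tumour 5.

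**Figure D1:**
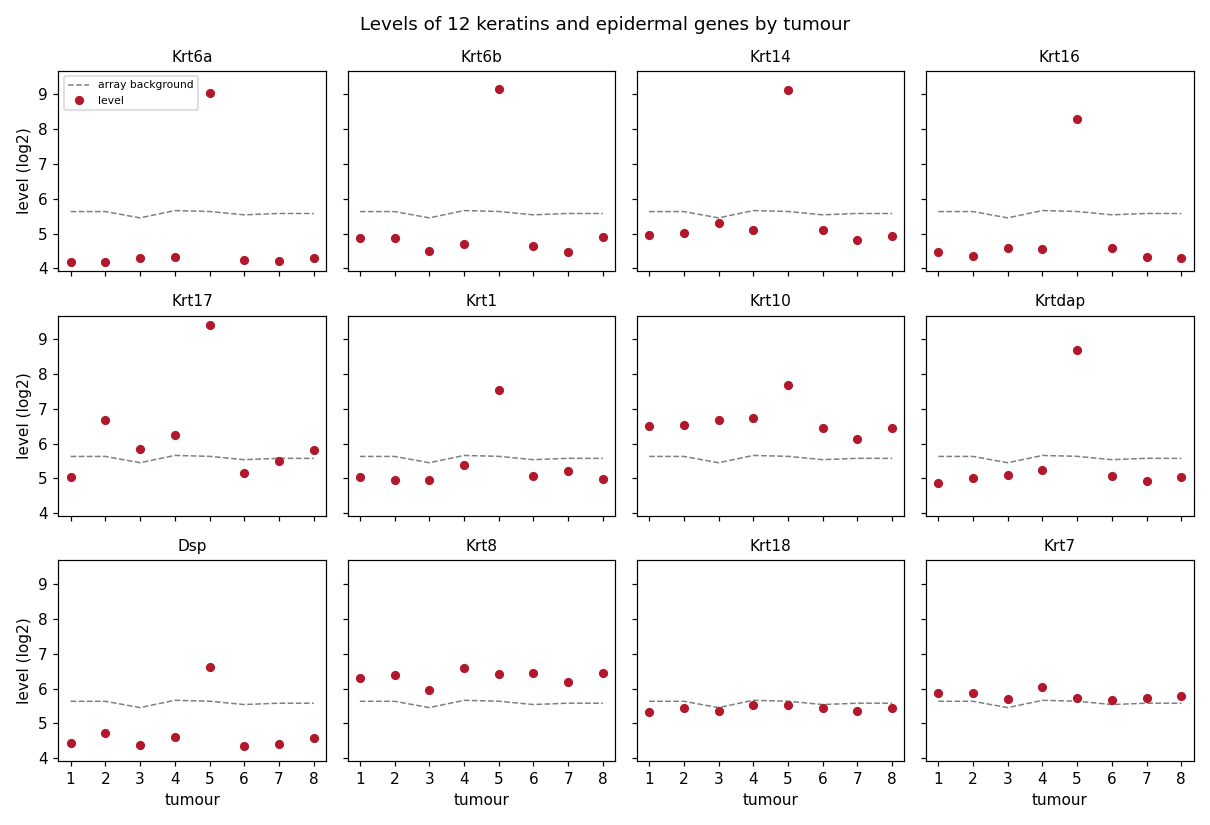
Levels of 12 genes (log2, vertical axis) in tumours 1 to 8 (horizontal axis), 1 array each, with the background of each array as a dashed line. Krt6a, Krt6b, Krt14, Krt16, Krt1, Krtdap and Dsp lie above the line in tumour 5 only, Krt10 and Krt8 lie above it in all 8 tumours, and Krt18 stays below it.

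Of the basal keratins, Krt14 followed tumour 5 and Krt15 stayed below background. Krt14, the type I keratin of the basal layer, was at 9.13 in tumour 5, 3.49 above background, against 4.95, 5.03, 5.29, 5.09, 5.09, 4.82 and 4.93 in the other tumours. Krt15, a basal keratin also known from hair follicle stem cells, was at 4.81 in tumour 5 and between 4.22 and 4.56 in the others. Krt5, the type II partner of Krt14, has no probe set annotated to it alone and is not analysed here. Trp63, which encodes the transcription factor p63 that sets up stratified epithelia, was at 5.84 in tumour 5, 0.20 above that array's background, and at 5.02 to 5.30, below background, elsewhere.

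Of the 5 suprabasal keratins of the epidermis, Krt1 and Krt10 passed the step in tumour 5, and Krt2 and Krt9 were highest elsewhere, in tumours 1 and 4. Krt1, the type II keratin of differentiating keratinocytes, was at 7.54 in tumour 5, against 5.04, 4.94, 4.95, 5.40, 5.07, 5.20 and 4.97 in the other tumours, all below background. Its partner Krt10 was at 7.68 in tumour 5, against 6.5, 6.55, 6.68, 6.75, 6.44, 6.14 and 6.44 in the other tumours. Unlike Krt1, Krt10 was above background in every tumour and was called, with a mean 1.06 above background (SE 0.135, limma adjusted p = 9.47e-06), and 0.92 above it without tumour 5 (limma adjusted p = 1.1e-06). Krt77 reached 5.67 in tumour 5 and at most 5.5 elsewhere, whereas Krt2, a keratin of the upper epidermis, was below background in all 8 tumours and Krt9, a keratin of palm and sole skin, lay within 0.22 of background in all of them. Of the suprabasal keratins of other stratified epithelia (Krt4 and Krt13 of mucosa, Krt12 of the cornea, Krt76 and Krt78), none passed the step in tumour 5, where they lay 0.02 to 0.38 above their medians, and 0 of 5 were called.

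**Figure D2:**
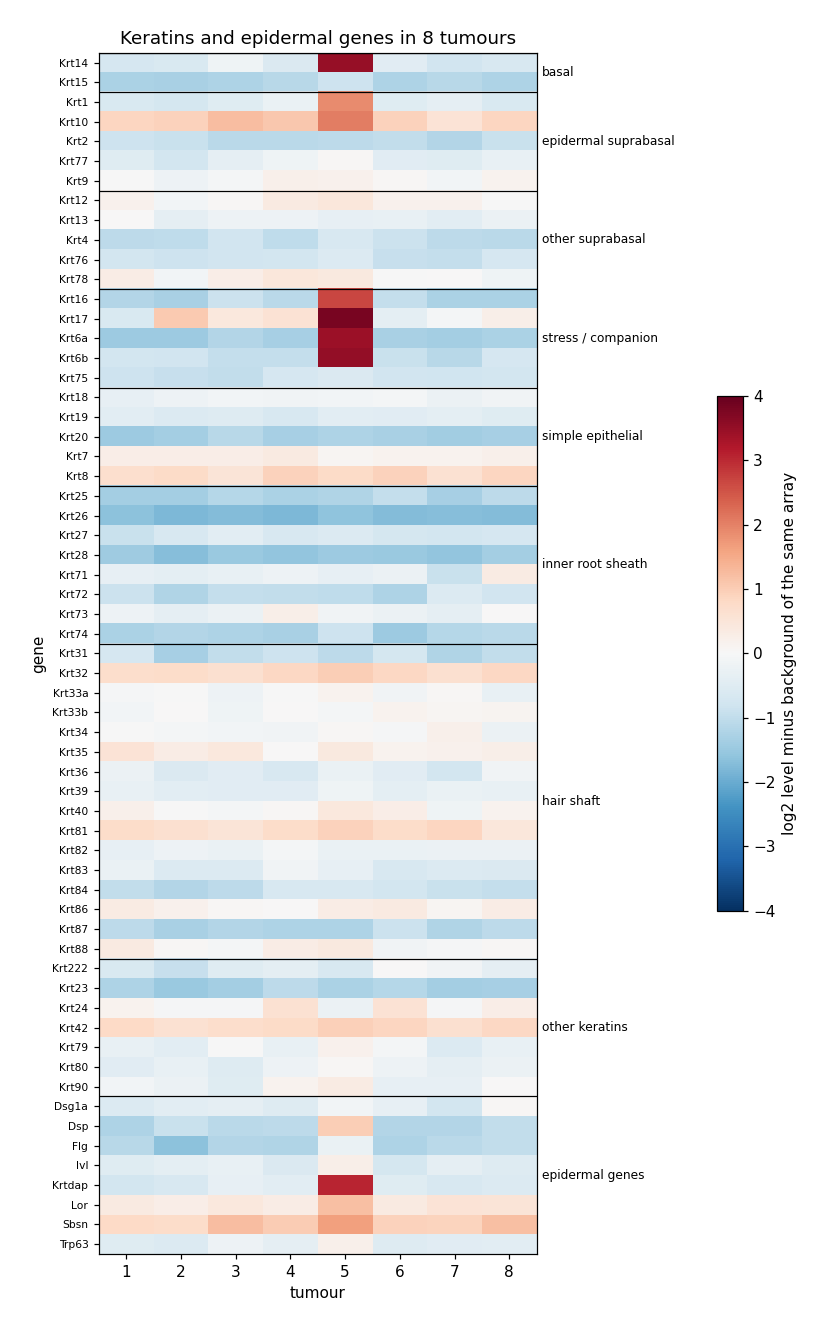
Log2 height over array background (colour; red above, blue below) for the 61 genes (rows, by class) in tumours 1 to 8 (columns). In the column of tumour 5, Krt14, Krt1, Krt10, 4 stress keratins, Krtdap, Lor and Sbsn pass 1 log2 unit above background. Krt10, Lor and Sbsn are above background in all 8 tumours. In no tumour does a simple-epithelial or hair keratin pass 1 log2 unit above background.

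The epidermal genes outside the keratin family differed in the same tumour. Krtdap, a small secreted protein of differentiating keratinocytes, was at 8.68 in tumour 5, against 4.88, 5.0, 5.11, 5.24, 5.07, 4.93 and 5.03 in the other tumours. Dsp, desmoplakin, which anchors keratin filaments to desmosomes, was at 6.62 in tumour 5, against 4.42, 4.73, 4.38, 4.61, 4.36, 4.41 and 4.58 in the other tumours. Its height over background was 0.98 in tumour 5, and the other values lay below background. Lor, Ivl and Flg, of the cornified envelope and granular layer of surface cells, deviated less than Krtdap and Dsp, by 0.87, 0.72 and 0.88. Lor (loricrin) was at 6.84 in tumour 5 and 5.88 to 6.14 in the others, Ivl (involucrin) at 5.85 and 4.83 to 5.23, and Flg (filaggrin, which bundles keratin filaments) at 5.36 and 4.0 to 4.58. Flg was below background on every array, tumour 5 included. Sbsn, a secreted epidermal protein, was at 7.27 in tumour 5 and 6.37 to 6.79 in the others. Lor and Sbsn were called, at 0.50 and 1.06 above background (SE 0.0978 and 0.0985, limma adjusted p = 0.000391 and 4.5e-07). Dsg1a, a desmosomal cadherin of the upper epidermis, was highest in tumour 8 (5.61), with 5.52 in tumour 5. Lor, Ivl and Flg lie on chromosome 3, whose 592 called genes had a median deviation of 0.18 in tumour 5, the highest of the numbered chromosomes and X there. The part of this shift in the values of those 3 genes was not tested.

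The step of 1 log2 unit ran between Krt10, at 1.15 above its median in tumour 5, and Flg, at 0.88. As a description of how far 1 array lies from the rest, the gap from the highest to the next value, over the range, was above Dixon's 95% critical value for 8 samples with tumour 5 highest in 15 of the 61 genes, and in 0.965% of all genes. Those 15 were the 9 genes above with Flg, Ivl, Lor, Sbsn, Trp63 and Krt4. Like Flg, Krt4 was below background on every array, at -0.65 in tumour 5. Counted gene by gene, 31 of the 61 were above the array background in tumour 5, and 16, 13, 13, 20, 16, 14 and 20 in tumours 1, 2, 3, 4, 6, 7 and 8. Over all genes the share above background was 61.1% in tumour 5, and 59.4%, 58.9%, 61.2%, 61.1%, 61.3%, 60.2% and 60.1% in those other tumours. In tumour 5 as elsewhere, that is fewer of the 61 than the share over all genes would give.

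**Figure D3:**
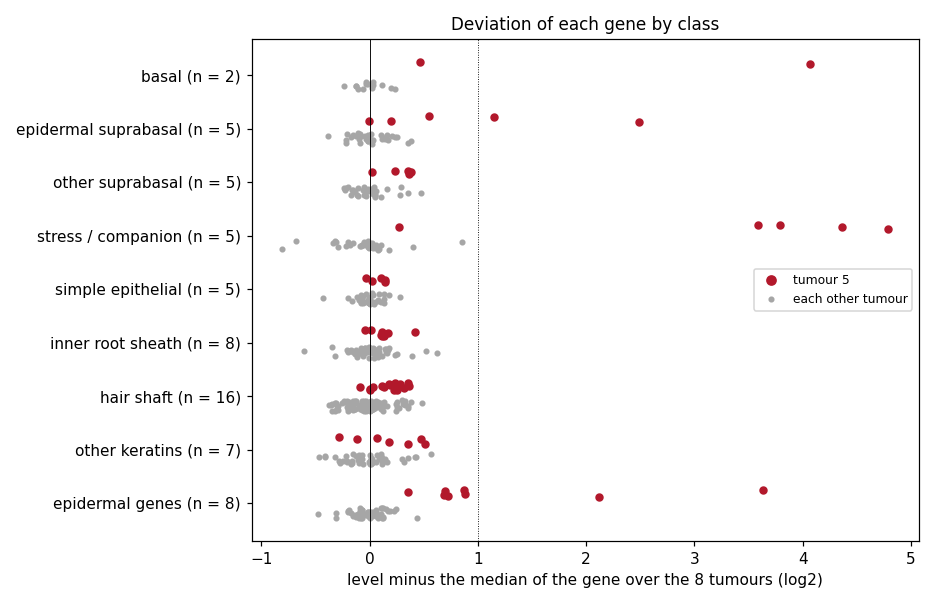
Level of each gene minus its own median over the 8 tumours (log2, horizontal axis) by class (vertical axis), with tumour 5 in red and each other tumour in grey, and a dotted line at 1. Red points pass the line in the basal, epidermal suprabasal and stress classes and among the epidermal genes, and none does in the simple-epithelial, inner root sheath or hair shaft classes.

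The simple-epithelial keratins showed no such step. Krt8, the type II keratin of simple epithelia, was at 6.42 in tumour 5, against 6.30, 6.38, 5.97, 6.58, 6.44, 6.20 and 6.45 in the other tumours. It was called, at 0.76 above background (SE 0.0655, limma adjusted p = 2.24e-07), and its SD was 0.19 over the 8 tumours and 0.12 without tumour 3, its lowest. Its obligate type I partner Krt18 was at 5.53 in tumour 5, against 5.32, 5.43, 5.35, 5.52, 5.45, 5.36 and 5.43 in the other tumours, below the background of every array. Krt7 was at 5.72 in tumour 5 and 5.67 to 6.03 in the others, and was called at 0.21 above background (SE 0.0512, limma adjusted p = 0.00173). Krt19, at 5.22 in tumour 5 and 4.93 to 5.22 in the others, and Krt20, at 4.40 and 4.18 to 4.34, were below background throughout. The deviation of the 5 genes from their medians in tumour 5 lay between -0.03 and 0.14, against -0.01 to 2.49 for the 5 epidermal suprabasal keratins and 0.27 to 4.79 for the 5 stress and companion layer keratins. These differences between classes rest on 1 tumour and were not tested.

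Hair keratins were near or below background in all tumours. Of 16 measured hair shaft keratins, 4 were called, namely Krt32 (6.36 ± 0.16), Krt35 (5.86 ± 0.18), Krt81 (6.29 ± 0.21) and Krt86 (5.79 ± 0.16, SD, n = 8 each), at 0.77, 0.28, 0.70 and 0.20 above background (limma adjusted p = 9e-08, 0.00166, 6.91e-07 and 0.00663). None of the 4 passed the step in any tumour, but Krt32, Krt81 and Krt86 were lowest in tumour 3, at -0.29, -0.35 and -0.32 from their medians. Over the 16 hair shaft keratins the median deviation in tumour 3 was -0.27, and its array had the lowest background, 5.45. Over background, Krt81 was instead lowest in tumour 8 (0.44, against 0.52 in tumour 3) and Krt86 in tumour 4 (0.00, against 0.06). Krt81 was at 6.56 in tumour 5 and 5.97 to 6.45 in the others, and Krt32 at 6.61 and 6.08 to 6.49. None of the 8 inner root sheath keratins was called (limma, adjusted p under 0.05 and above background). In tumour 5 the hair shaft and inner root sheath keratins deviated from their medians by -0.09 to 0.42. The largest deviation among them was in another tumour, where Krt71 was at 5.92 in tumour 8 and 4.68 to 5.47 in the rest. Of 51 genes of keratin-associated proteins, the matrix between hair keratin filaments, 9 were called, and none passed the step in tumour 5. Krtap4-13, Krtap9-1, Krtap17-1 and Krtap5-5 had the largest SDs among the 9 (0.26, 0.23, 0.22 and 0.22). Their means were 2.26, 1.65, 1.11 and 0.40 above background, where the median height of the 51 was -1.76. No keratin had a mean more than 1.06 above background. Whether heights of this size stand for expression was not tested. Foxn1, a regulator of hair keratins and the gene mutated in nude mice, was at 5.67 ± 0.16 (SD, n = 8) and was not called (limma adjusted p = 0.194).

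Over the 61 genes, 10 were called above background and 34 below it, against 57.3% and 36.1% of all 22180 genes. By class, 0 of 2 basal, 1 of 5 epidermal suprabasal, 0 of 5 other suprabasal, 0 of 5 stress and companion layer, 2 of 5 simple-epithelial, 0 of 8 inner root sheath, 4 of 16 hair shaft and 1 of 7 other keratins were called above, with 2 of the 8 epidermal genes. The keratin called among the others was Krt42, at 6.36 ± 0.15 (SD, n = 8) and 0.77 above background (limma adjusted p = 1.01e-07), a gene next to Krt17 on chromosome 11. The median height over background was -0.29 for the 61 genes and 0.68 for all genes. The test is of the mean over tumours, so Krt6a, Krt6b, Krt14, Krt16 and Krt17, far above background in 1 tumour, were not called (limma adjusted p between 0.16 and 0.92). The calls depend on where the background is set, with 36 of 61 called against the 90th percentile of the receptor probe sets and 61 of 61 against their median.

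By position, the keratin genes lie in 2 clusters, with 27 of the measured ones on chromosome 11 and 26 on chromosome 15 (type II genes and Krt18), and the genes high in tumour 5 lay beside genes that were not. In the order of the GRCm38.p6 annotation, Krt14, Krt16 and Krt17 follow one another on chromosome 11 and deviated from their medians by 4.07, 3.79 and 3.59 in tumour 5. Their neighbours Krt9 before and Krt42 after deviated by 0.20 and 0.18. On chromosome 15, Krt6b and Krt6a, at 4.36 and 4.79, lie between Krt75, at 0.27, and the unmeasured Krt5, followed by Krt71, at 0.01. Krt1, at 2.49, lies between Krt2, at -0.01, and Krt77, at 0.55. The called genes of chromosomes 11 and 15 had median deviations of 0.09 and 0.03 in tumour 5.

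Upstream sequence is shown for the epidermal differentiation genes Krtdap, Lor and Ivl, which deviated from their medians by 3.63, 0.87 and 0.72 in tumour 5, for Dsp, at 2.12, and for Krt18, at 0.10. The sequences are the 250 bases before the gene start in RefSeq (GRCm38.p6), on the strand of the gene, with each TATAAA, the core of the TATA box, and each TGANTCA, the core of the AP-1 site, in capitals, searched on both strands. The motifs do not overlap in these windows. The positions are chr7:30787655-30787904 on the plus strand for Krtdap, chr3:92083143-92083392 on the minus strand for Lor, chr3:92573736-92573985 on the minus strand for Ivl, chr13:38151044-38151293 on the plus strand for Dsp and chr15:102027966-102028215 on the plus strand for Krt18.
Krtdap: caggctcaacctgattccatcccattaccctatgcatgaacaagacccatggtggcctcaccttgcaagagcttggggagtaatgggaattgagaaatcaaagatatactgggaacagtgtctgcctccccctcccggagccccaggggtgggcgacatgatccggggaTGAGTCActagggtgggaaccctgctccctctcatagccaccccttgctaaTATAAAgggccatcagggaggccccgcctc
Lor: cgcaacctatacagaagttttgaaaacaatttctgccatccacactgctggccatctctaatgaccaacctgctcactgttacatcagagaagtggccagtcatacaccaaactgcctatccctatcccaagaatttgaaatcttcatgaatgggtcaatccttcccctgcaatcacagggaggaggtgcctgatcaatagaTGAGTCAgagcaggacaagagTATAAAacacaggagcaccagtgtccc
Ivl: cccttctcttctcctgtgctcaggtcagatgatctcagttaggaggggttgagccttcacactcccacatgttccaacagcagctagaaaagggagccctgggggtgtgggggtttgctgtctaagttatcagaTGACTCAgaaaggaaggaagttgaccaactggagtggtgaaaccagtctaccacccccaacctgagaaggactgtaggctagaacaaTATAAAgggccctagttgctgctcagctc
Dsp: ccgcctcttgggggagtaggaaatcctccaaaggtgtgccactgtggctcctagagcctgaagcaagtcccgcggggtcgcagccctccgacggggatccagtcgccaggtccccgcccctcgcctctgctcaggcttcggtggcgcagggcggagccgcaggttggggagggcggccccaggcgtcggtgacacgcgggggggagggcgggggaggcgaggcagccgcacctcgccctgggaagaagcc
Krt18: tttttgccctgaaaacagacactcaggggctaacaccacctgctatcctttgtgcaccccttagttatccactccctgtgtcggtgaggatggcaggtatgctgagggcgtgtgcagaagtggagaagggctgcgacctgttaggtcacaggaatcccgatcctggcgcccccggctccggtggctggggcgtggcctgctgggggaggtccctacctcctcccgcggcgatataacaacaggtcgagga
The windows of Krtdap, Lor and Ivl hold a TATAAA that begins 30, 27 and 29 bases before the start and a TGANTCA that begins 81, 48 and 116 bases before it. Neither motif is in the windows of Dsp and Krt18, whose GC content is 72.4% and 60.4%, against 56.4%, 46.4% and 51.6% for Krtdap, Lor and Ivl. The table held such a window for 41 of the 61 genes, of which 21 (51.2%) hold TATAAA and 6 (14.6%) hold TGANTCA. Of all 32851 promoter windows of the same length, 12.4% hold TATAAA and 6.75% hold TGANTCA. The shares of the 41 are per gene, with any window of a gene counting, and those of all windows are per window, so they are not fully alike. Both motifs are in 4 of the 41 (Krtdap, Lor, Ivl and Flg) and in 1.21% of all windows. TATAAA is in the window of Krt10, at 1.15 in tumour 5, but also in those of hair keratins that deviated little. Examples are Krt25, Krt34 and Krt71, at 0.10, 0.13 and 0.01. TGANTCA is also in the windows of Sbsn, at 0.70, and Krt13, at 0.02. Whether the motifs go with the deviation in tumour 5 was not tested. Of the 9 genes past the step in tumour 5, Krt1, Krt6a, Krt6b, Krt16 and Krt17 have no window, and the one listed for Krt14 does not lie at the outer gene start, so the counts say little about those genes. A match is a description of letters and not a binding site.

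Other genes of stratified epithelium had the same high tumour. Among 12 genes of desmosomes and plakins, the cell contacts that keratins attach to, 4 passed the step in tumour 5. Dsc1, a desmosomal cadherin of the upper epidermis, was at 5.94 in tumour 5 and 3.76 to 4.12 in the others, Dsc3 at 6.5 and 4.52 to 5.66, Dsg3 at 5.78 and 4.09 to 5.02, and Pkp1, a desmosomal plaque protein of skin, at 6.52 and 5.25 to 5.60. Their heights over background in tumour 5 were only 0.30, 0.87, 0.15 and 0.88. In the other tumours they were below it, apart from Dsc3 in tumour 7 (0.08), so part of each deviation lies under the floor. The 4 genes of this list called above background were Jup, Pkp3, Pkp4 and Evpl. Pkp3 and Evpl were highest in tumour 5, at 6.36 and 6.12, with at most 5.83 and 6.03 elsewhere. Jup (plakoglobin, shared with classical cell contacts) was at 7.84 ± 0.52 (SD, n = 8) and highest in tumour 8. Pkp4 deviated by -0.18 in tumour 5, its lowest level. Of the 12 genes, 8 were highest in tumour 5, against 17.7% of all genes. Without tumour 5, 3 genes of the list were called. Dsg2 and Dsc2, the desmosomal cadherins of simple epithelia, deviated by 0.04 or less in tumour 5 and were below background in every tumour.

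Of 21 measured cornified envelope genes, 8 passed the step in tumour 5 and 17 were highest there. Sprr1a and Sprr1b, small proline-rich envelope proteins, were at 8.89 and 8.19 in tumour 5 and at most 5.97 and 5.32 elsewhere. Dmkn, a secreted epidermal protein, was at 8.16 in tumour 5 and 5.43 to 5.97 elsewhere. The others that passed were Asprv1, Klk7, Cdsn, Klk5 and Casp14, proteases and a structural protein of the surface layers, by 1.62, 1.52, 1.41, 1.38 and 1.19. Casp14 was below background in all 8 tumours, with a height of -0.12 in tumour 5, so its deviation is one of values near or under the floor. Sprr3 and Tchh, known from mucosa and from the inner root sheath, and Lce1a1, of the late envelope, were below background in all 8 tumours and deviated by 0.02, -0.05 and 0.08 in tumour 5. Over all 8 tumours 6 of the 21 were called, with Asprv1, Cdsn, Lgals7 and Tgm1 varying most (SD 0.61, 0.55, 0.49 and 0.31). The genes singled out in this and the previous paragraph for tumour 5 were chosen after their values were seen.

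General epithelial genes were read from 3 lists, of adhesion, transcription factors and hemidesmosomes. Of 15 genes of epithelial adhesion, 1 passed the step in tumour 5, Rab25, an epithelial vesicle transport gene, at 6.82 in tumour 5 and 4.70 to 5.74 in the others. Cdh1 (E-cadherin), one of 2 called genes of this list, was at 6.85 in tumour 5 and 5.89 to 6.27 in the others, and the other, Cldn3, a tight junction gene, at 6.97 and 6.14 to 6.96. Cdh1 was read from the brighter of 2 probe sets and was not called with them averaged. Epcam, a surface protein of simple epithelia, was at 4.75 in tumour 5 and 4.39 to 5.23 in the others, below background throughout. Cldn1, also of tight junctions, passed the step in tumour 4, by 1.68. Of 18 epithelial transcription factors none passed the step in tumour 5, while Tfap2a passed it in tumours 2 and 4 (1.38 and 1.67) and Hr in tumour 3 (1.09), and 6 were called. Among these, Hr, the hairless gene, was at 7.81 in tumour 5 and at 7.93 in tumour 3, Klf4, a factor of epidermal barrier formation, at 6.61 in tumour 5 and at most 6.20 elsewhere, Grhl3 at 6.36 and at most 5.92, while Klf5 was highest in tumour 6. Of 8 hemidesmosome genes, which tie the basal layer to its matrix, 6 were called and none passed the step. Dst and Itga6, called with the largest SDs of that list (0.45 each), deviated from their medians by -0.72 and -0.29 in tumour 5, and Cd151 and Plec (SD 0.40 and 0.29) by 0.43 and 0.22. Highest in tumour 5 were 5 of the 8, against 17.7% of all genes. These were Lamb3, Itgb4, Col17a1, Cd151 and Lama3, at 0.51, 0.44, 0.43, 0.43 and 0.37 above their medians. Lamb3 and Lama3 lay near background there, at heights of 0.12 and -0.06.

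No marker of muscle, fibroblasts, fat, sebaceous glands or mesothelium passed the step in tumour 5. In tumour 5 the 6 skeletal muscle markers lay between -1.81 and 0.04 from their medians, with Acta1 at 7.03 there, its lowest value, and up to 10.43 in tumour 6. The called muscle genes Tnnt3, Acta1 and Ckm had SDs of 1.34, 1.33 and 0.99. The 6 fibroblast markers lay between -0.30 and 0.05 in tumour 5, the 8 adipocyte and sebaceous gland markers between -0.19 and 0.59, and the 7 mesothelium markers between 0.00 and 0.49. Of these lists 3 of 6 muscle, 6 of 6 fibroblast, 3 of 8 adipocyte and sebaceous, and 1 of 7 mesothelium markers (Wt1, 5.82 ± 0.15, SD, n = 8) were called. The called fibroblast genes with the largest SDs were Postn, Dcn, Col1a1 and Col1a2 (0.84, 0.79, 0.56 and 0.56), and those of adipocytes and sebaceous glands Fabp4, Scd1 and Cidea (0.94, 0.58 and 0.37). The 6 measured neuroblastoma markers lay between -0.22 and 1.64 from their medians in tumour 5. Chga (11.28, at most 11.04 elsewhere) and Dbh (11.43, with 11.42 in tumour 2) had their highest levels there. Th (10.78), Isl1 (11.27), Hand2 (10.60) and Chgb (11.09) lay within the range of the other tumours. Of these, Chgb passed the step in tumour 5, by 1.64, and also in tumours 2 and 4 (1.47 and 1.87). Dbh, Chgb and Th, of catecholamine synthesis and its storage granules, varied most in that list (SD 1.88, 1.37 and 0.91), followed by Isl1 (0.46).

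**Figure D4:**
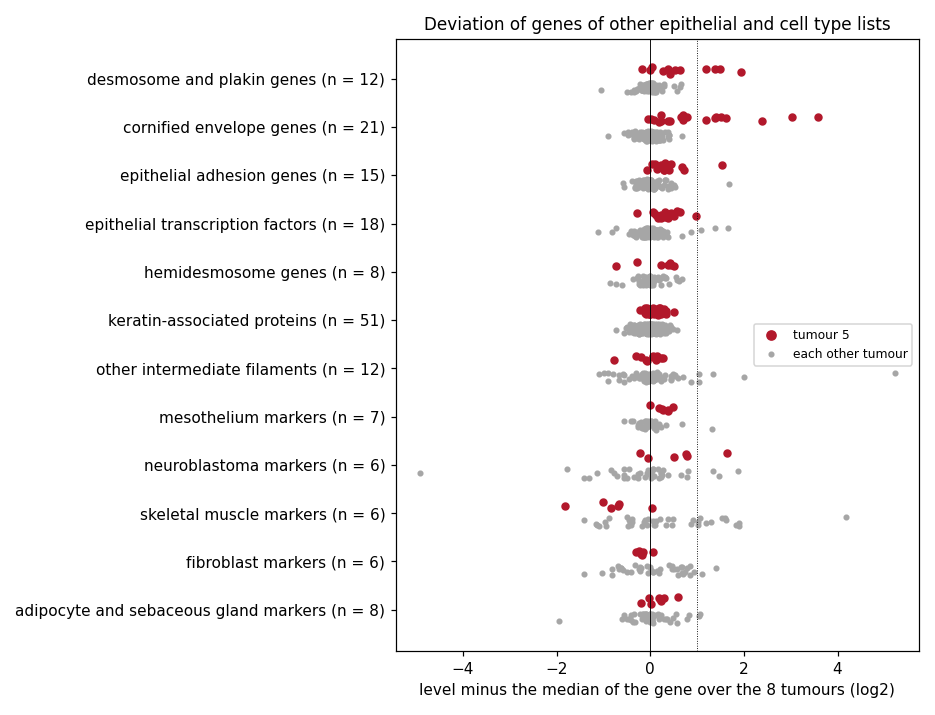
Level of each gene minus its own median over the 8 tumours (log2, horizontal axis) for 12 other gene lists (vertical axis), with tumour 5 in red, each other tumour in grey and a dotted line at 1. Red points pass the line in the desmosome list (4 of 12) and the cornified envelope list (8 of 21), with 1 each among the epithelial adhesion genes (Rab25) and the neuroblastoma markers (Chgb).

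The remaining intermediate filament genes were those of neurons and mesenchyme. Of 12, 9 were called, with vimentin (Vim) at 12.23 ± 0.25, the neuronal alpha-internexin (Ina) at 12.24 ± 0.12 and the neurofilament gene Nefl at 12.13 ± 0.31 (SD, n = 8 each). The called genes of this list with the largest SDs were Prph, Des, Nes and Nefh (0.98, 0.79, 0.72 and 0.47), highest in tumours 7, 8, 6 and 6. In tumour 5 the 12 genes lay between -0.78 (Des) and 0.28 (Vim) from their medians.

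Ranked over the whole array by the lead of the highest tumour over the second highest, Krt6a and Krt6b ranked 2 and 3 of 22180 genes, at 4.72 and 4.26, after Gfap, an astrocyte and glial filament gene highest in tumour 4 (4.78). For both keratins the next highest level was below background, at heights of -1.33 and -0.68, so lead and rank depend on values under the floor, and over background they reached 3.42 and 3.52. Eya2, at rank 7 with a lead of 3.74 in tumour 6, was above background in all 8 tumours. Krt14, Krt16, Krtdap, Krt17, Krt1 and Dsp ranked 5, 8, 11, 22, 45 and 67. Apart from Krt17, their next highest levels were also below background, so the same limit holds for them, and Dsp reached only 0.98 over background in tumour 5. Of the 30 largest leads, 12 were in tumour 5 and 13 in tumour 4. Besides the 6 keratins and epidermal genes of the rule, those of tumour 5 were Stfa1 (a cysteine protease inhibitor), 2610528A11Rik, Sprr1a, Sprr1b, Klk6 (a kallikrein protease) and Perp, a desmosomal protein of stratified epithelia, at 8.79 in tumour 5 and 5.63 to 6.30 in the others.

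**Figure D5:**
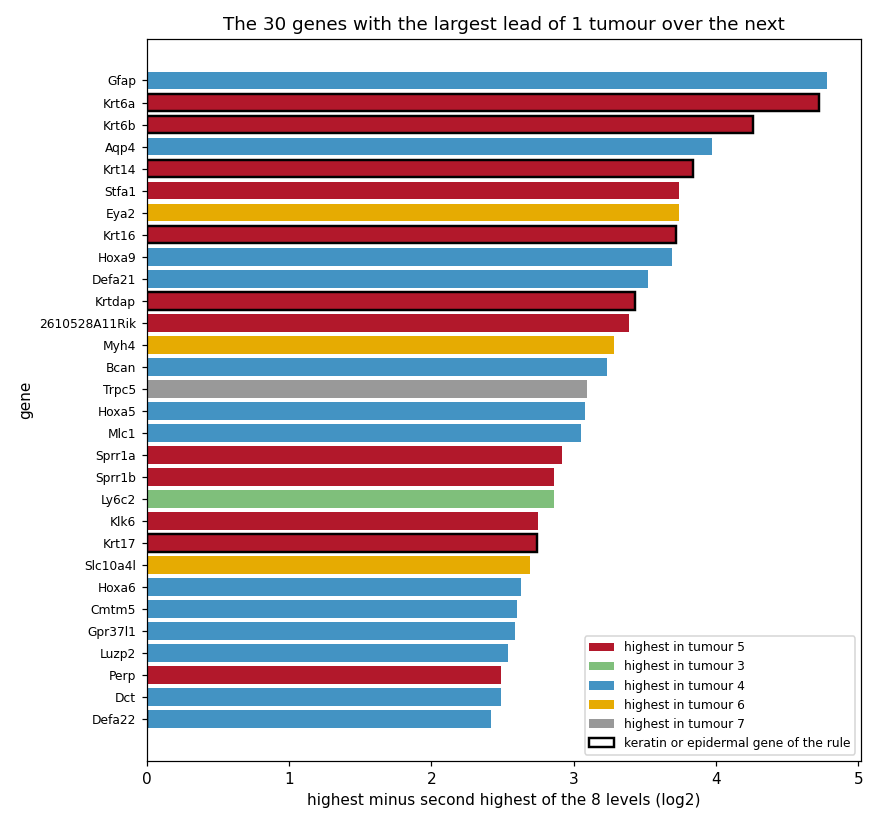
Highest minus second highest of the 8 levels (log2, horizontal axis) for the 30 genes of the array with the largest such lead (vertical axis), coloured by the tumour with the highest level; black outlines mark keratins and epidermal genes of the rule. Tumour 5 leads in 12 of the 30 and tumour 4 in 13.

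The patterns over the tumours most like those of the called genes Krt10, Lor and Sbsn were sought among called genes outside the rule, by Pearson's r over 8 tumours, as a description. The 5 genes most like Lor were Ly6g6e, Asprv1, Ly6g6c, Calm4 and Sprr2b (r of 0.956 to 0.986), all highest in tumour 5. Without that tumour their r with Lor was 0.502 to 0.834. The 5 most like Krt10 were Fcor, 1700084E18Rik, Gm4890, Cyp2c55 and Psmb4 (r of 0.965 to 0.979), and the 5 most like Sbsn were Prune1, Trappc3, Nrbf2, Mrps28 and Mettl14 (r of 0.948 to 0.988). These 10 were also highest in tumour 5, by 0.23 to 0.96 above their medians. Without that tumour their r was 0.857 to 0.958 with Krt10 and 0.785 to 0.971 with Sbsn. Of 12 pairs of genes named for a test of relation, such as Krt8 with Krt18 and Krt1 with Krt10, none had both genes called, and no relation was computed.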

How the data were processed

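Total RNA of 8 tumours was measured on Affymetrix arrays, 1 per tumour. The deposited log2 levels, 1 per probe set, come from the authors' use of RMA and Partek 6.5. These tools are named without their order, per the submitters' processing notes, and any filter or genome build is not given in the sources. Of 41345 probe sets, 23521 carry 1 gene symbol, 1814 several and 16010 none; no gene was named from several. For a gene with several probe sets, the brightest on average stood for it, which gave 22180 genes, of which 21994 were placed on a chromosome by Entrez identifier (GRCm38.p6). Of the 61 genes, 1 (Krt18) had several probe sets.

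Heights over array background went into limma 3.58.1 (R 4.3.3) (trend and robust prior, two-sided, 7 residual degrees of freedom), checked on simulated data. Other steps used Python 3.11.15, numpy 2.4.6, pandas 2.3.3, scipy 1.17.1 and matplotlib 3.10.9. Deviations were taken from each gene's median over the 8 tumours. Named are all called genes of the rule, 10 keratins and epidermal genes fixed by name, those with the largest SD or far above background in 1 tumour, and of each other list the 4 called genes with the largest SD. The genes and lists were chosen with earlier results of these data known; the step of 1 and the ranking of leads were chosen after seeing the values. Alternatives changed the background, probe set rule, scaling, prior, dim genes and tumours.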

Additional observations from a re-analysis of the deposited data

Results flagged for a closer look

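In 15 of the 61 genes, tumour 5 was highest by a gap that was large for the range of the 8 values. The gap between the highest and second highest value, as a share of the whole range, exceeded Dixon's 95% value for 8 samples. The shares were Krt6a (0.968), Krt16 (0.93), Krt6b (0.912), Krtdap (0.905), Krt14 (0.891), Dsp (0.835), Krt1 (0.822), Lor (0.732), Trp63 (0.658), Krt17 (0.622), Ivl (0.606), Krt10 (0.602), Krt4 (0.597), Flg (0.571) and Sbsn (0.536). Krt4 and Flg were below background on every array, at heights of -0.65 and -0.27 in tumour 5. Krt4 was at 4.99 there and at most 4.69 elsewhere, so a large share can stand for a small gap. A gene low in 1 tumour was Krt33b, a hair keratin, at 5.27 in tumour 3 and 5.51 to 5.69 in the others (0.566). Hair shaft keratins as a class were lower in that tumour, with a median deviation of -0.27, but its array also had the lowest background, 5.45. Over background, Krt33b was at -0.18 in tumour 3 and at -0.12 in tumour 1, its next lowest. The chance rate of about 1 gene in 20 by this measure is for a high or low value in any of the 8 tumours. With tumour 5 highest, 0.965% of all genes exceeded the value. The flagged genes are not independent of each other.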

How the results depend on the processing

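The count of 10 genes called above background was 10 with probe sets averaged per gene, with arrays centred or quantile normalized again, without limma's trend and robust prior and with dim genes left out. It was 10 to 11 when each tumour was left out in turn. A lower background raised it, by construction: at the 90th percentile of the receptor probe sets 36 were called, and at their median 61. By class, the median gave 2 basal, 5 epidermal suprabasal, 5 other suprabasal, 5 stress, 5 simple-epithelial, 8 inner root sheath, 16 hair shaft and 7 other keratins, and the 90th percentile 3 epidermal suprabasal, 3 other suprabasal, 1 stress, 4 simple-epithelial, 2 inner root sheath, 13 hair shaft and 5 other keratins. For the other lists, the 90th percentile gave 5 of the 8 epidermal genes, 7 desmosome, 10 cornified envelope, 9 epithelial adhesion, 3 mesothelium and 5 adipocyte and sebaceous genes. The median gave 8 epidermal, 12 desmosome, 17 cornified envelope, 15 adhesion, 18 transcription factor, 7 mesothelium, 6 muscle, 8 adipocyte and sebaceous and 29 keratin-associated protein genes. With probe sets averaged per gene 1 adhesion gene was called, Cldn3 and not Cdh1. Without tumour 8 the mesothelium list had 2 calls (1 to 2 over the tumours left out). Without tumour 2 or tumour 8 the other suprabasal class had 1 call (0 to 1 over the tumours left out). The 10 called genes kept their calls under these alternatives. The count of 9 genes past the step in tumour 5 was 16 at a step of 0.5 and 8 at a step of 2, and 9 under the other scalings and without each other tumour; these settings were added after seeing the data. No paired analysis was possible because the tumours form 1 group. Small heights above background are limited by the background itself.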
